A study of Mus musculus with 2 samples.

Results

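Of the 18043 rows of the table that carry a gene symbol, 9 encode secreted neurotrophic factors, or the receptors through which such factors support sensory neurons. They are the ligands *Bdnf*, *Ntf3*, *Gdnf* and *Nrtn* and the receptors *Ntrk2*, *Ngfr*, *Gfra1*, *Gfra2* and *Ret*. They were chosen by symbol and each has 1 row. Their mRNA was compared between 2 poly(A) RNA-sequencing libraries of mouse tongue. The CvP library holds the circumvallate papillae, the large taste papillae at the back of the tongue, and the Epi library holds tongue epithelium that has no papillae. Both were made from male C57BL/6J mice of 12 to 30 weeks on normal chow, with no genetic change or treatment listed, and RNA of at least 20 mice was pooled for each library. The pools leave no replicate within a tissue, so every difference is between single libraries and carries no p-value. In the study's account of its RT-PCR, the CvP sample held the epithelium around the taste buds as well. Its account of the sequencing does not say whether this holds for the sequenced RNA. From the RPKM values (reads mapped to a gene's exon model, divided by its length and by the library's mapped reads) the depth was estimated at 28375281 mapped reads for the CvP and 27908511 for the Epi. The 95% exact intervals given here come from reads estimated at that depth and cover counting error only.

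Taste receptor cells have no axons, and they are contacted by sensory neurons whose cell bodies lie in cranial ganglia outside the tongue. Neurotrophins such as BDNF are secreted by target tissues and act on neurons through Trk receptor kinases and through the pan-neurotrophin receptor encoded by *Ngfr*, and BDNF acting on TrkB, the product of *Ntrk2*, is known to be needed for normal taste innervation. Ligands of the GDNF family act through another complex, in which a GFRα co-receptor anchored to the membrane binds the ligand and the kinase RET carries the signal. GFRα1 prefers GDNF and GFRα2 prefers neurturin, the product of *Nrtn*. Messenger RNA of the neurons' own receptors is found mainly in their cell bodies. The part of nerve fibres in the receptor mRNA measured here was not tested.

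Several members are close relatives, and the reads were 75 bp long, so the transcripts of related genes were compared over every window of that length. The windows with the fewest differences are shown because they are where a read of one gene would most easily be taken for the other, and capitals mark the bases that differ. For *Gfra1* and *Gfra2* (GENCODE M1 transcripts, NCBI37/mm9) the closest windows lie at coding bases 454 to 528 and 475 to 549, and 12 of the 75 bases differ.
Gfra1: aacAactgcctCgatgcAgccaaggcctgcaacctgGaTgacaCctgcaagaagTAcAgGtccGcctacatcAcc
Gfra2: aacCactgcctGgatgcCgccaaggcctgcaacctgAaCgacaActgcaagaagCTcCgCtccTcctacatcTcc
For the ligands *Bdnf* and *Ntf3* the closest windows lie at coding bases 613 to 687 of *Bdnf* and 652 to 726 of *Ntf3*, and 20 bases differ.
Bdnf: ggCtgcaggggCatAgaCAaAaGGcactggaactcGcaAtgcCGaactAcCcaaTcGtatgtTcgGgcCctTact
Ntf3: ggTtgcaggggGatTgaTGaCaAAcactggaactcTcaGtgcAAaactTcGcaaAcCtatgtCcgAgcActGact
For *Ntrk2* the nearest relative among the genes described here is *Ntrk3*, the receptor of neurotrophin-3, and 9 bases differ between coding bases 1822 to 1896 of *Ntrk2* and 1825 to 1899 of *Ntrk3*.
Ntrk2: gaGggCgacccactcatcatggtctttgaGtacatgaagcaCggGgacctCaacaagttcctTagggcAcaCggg
Ntrk3: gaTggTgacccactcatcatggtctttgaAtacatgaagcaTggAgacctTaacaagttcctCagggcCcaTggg
*Gdnf* and *Nrtn* were further apart, with at least 32 differences in any window. In none of these 4 pairs did a window hold 2 or fewer differences.

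Among the ligands of the neurotrophin family, *Bdnf* (Entrez 12064, chromosome 2 from 109514857 to 109567200, plus strand, NCBI37/mm9 as all gene positions here) stood at 5.03 RPKM in the CvP against 0.88 in the Epi, from about 609 and 105 reads. The CvP level was 5.72-fold higher (95% interval 4.63 to 7.09). *Bdnf* has 10 annotated coding transcripts that start from different promoters and share the coding exon, and the single row does not separate them. *Ntf3* (Entrez 18205, chromosome 6 from 126051430 to 126116762, minus strand), which encodes neurotrophin-3, stood at 3.99 RPKM in the CvP against 4.17 in the Epi. Its CvP/Epi ratio was 0.957 with an interval of 0.768 to 1.20 that holds 1, and rescaling both libraries to the same RPKM sum turned it to 1.15. Divided by the median ratio given below it was 0.729, and by that of rows of like level 0.616. Both of these values lie below the interval. Of these ligands of the same family, *Bdnf* was thus higher in the papillae, and whether *Ntf3* differed depended on how the libraries were scaled.

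The receptors of the neurotrophins differed in opposite directions. *Ntrk2* (Entrez 18212, chromosome 13 from 58907957 to 59231328, plus strand) had 1.7 RPKM in the CvP against 7.64 in the Epi, from about 412 and 1821 reads, and was 4.49-fold higher in the Epi (4.04 to 5.01). It held the highest Epi level of the 9 genes on the RPKM scale. *Ntrk2* makes a full-length kinase and truncated forms without the kinase domain, and the row pools its 5 annotated coding transcripts. *Ngfr* (Entrez 18053, chromosome 11 from 95430140 to 95449012, minus strand), which binds all neurotrophins and their precursors, had 5.47 RPKM in the CvP against 1.94 in the Epi, a ratio of 2.82 (2.38 to 3.36). Within the CvP there was 3.22 times as much *Ngfr* as *Ntrk2* on the RPKM scale, and within the Epi 0.254 times, so that this ratio, which does not depend on how the libraries are scaled, was 12.7-fold higher in the CvP (10.3 to 15.6). The ratio of *Bdnf* to its receptor *Ntrk2* was 2.96 in the CvP against 0.115 in the Epi, which is 25.7-fold higher in the CvP (20.2 to 32.7). These pairs were chosen after their values were seen.

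**Figure D1:**
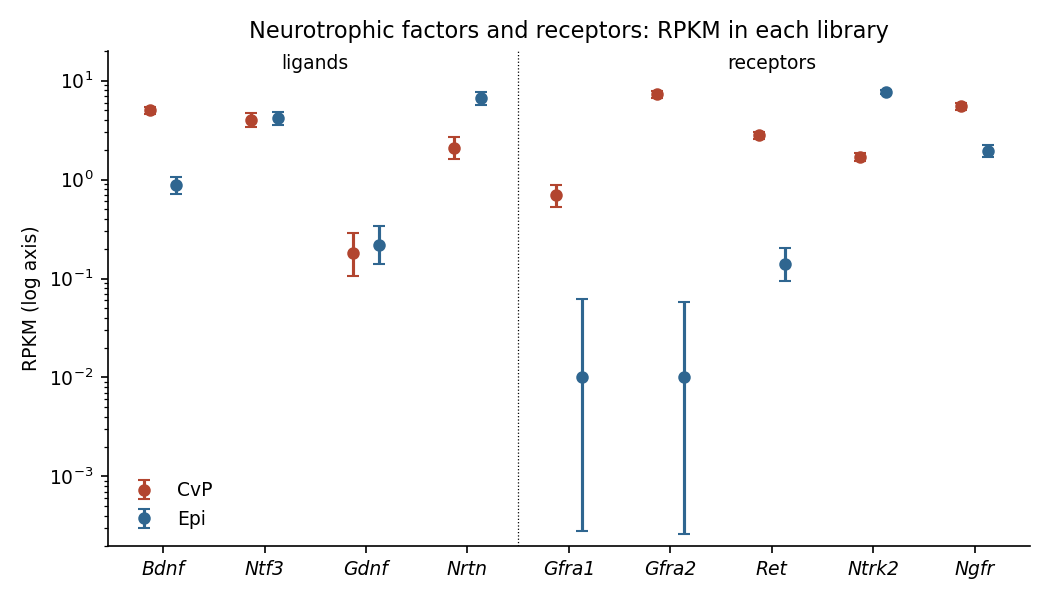
RPKM of the 9 genes in the CvP library (red) and the Epi library (blue) on a log axis, with 1 point per library, lines for the 95% exact Poisson interval of its reads, and the ligands left of the dotted line. *Gfra2*, *Ngfr* and *Bdnf* lead in the CvP at 7.27, 5.47 and 5.03 RPKM, and *Ntrk2* and *Nrtn* lead in the Epi at 7.64 and 6.63.

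Of the GDNF-family ligands among the members, neither was higher in the papillae. *Gdnf* (Entrez 14573, chromosome 15 from 7761011 to 7787575, plus strand) was the lowest member in the CvP at 0.18 RPKM and stood at 0.22 in the Epi, from about 18 and 22 reads. Its ratio of 0.818 had an interval of 0.407 to 1.57, so a difference in the reported values was not detectable at this depth. Divided by the median ratio of rows of like level it was 0.263, below that interval. *Nrtn* (Entrez 18188, chromosome 17 from 56890748 to 56896953, minus strand) had 2.1 RPKM in the CvP against 6.63 in the Epi, from about 61 and 189 reads. It was 3.16-fold higher in the Epi, and the interval of 2.35 to 4.28 holds the limit of 3 used below.

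*Gfra1*, *Gfra2* and *Ret*, the receptor genes of this system among the members, were all higher in the CvP. *Gfra2* (Entrez 14586, chromosome 14 from 71289937 to 71379645, plus strand) had the highest CvP level of the 9 genes, 7.27 RPKM from about 714 reads, and 0.01 RPKM in the Epi, where 1 read is worth 0.0103 RPKM. The ratio of 727 rests on that single Epi read and has an interval of 126 to 27776. *Gfra1* (Entrez 14585, chromosome 19 from 58311182 to 58528956, minus strand) was lower, with 0.69 RPKM from about 63 reads in the CvP and again 1 read in the Epi, for a ratio of 69.0 (10.7 to 2486). The antisense non-coding gene *Gm16277* shares 416 of the 5476 exon bases of *Gfra1*, and as strand is not given in the sources used here, its reads cannot be told from those of *Gfra1*. *Ret* (Entrez 19713, chromosome 6 from 118101766 to 118147762, minus strand) had 2.79 RPKM in the CvP against 0.14 in the Epi, from about 581 and 29 reads, and was 19.9-fold higher in the CvP (13.6 to 29.7).

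Set against each other within the CvP, the co-receptor *Gfra2* stood at 10.5 times the level of *Gfra1*, and *Ret* at 0.384 times the level of *Gfra2*. In the Epi both co-receptors were at 1 read, while *Ret*, with about 29 reads, stood at 14.0 times the level of *Gfra2*. The ligand and its preferred co-receptor were thus highest in different libraries. In the CvP *Gfra2* stood at 3.46 times the level of *Nrtn* and in the Epi at 0.00151 times, and the interval of the quotient, 372 to 87939, is wide because of the single Epi read of *Gfra2*. *Gdnf* was 0.0857 times *Nrtn* in the CvP and 0.0332 times in the Epi.

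**Figure D2:**
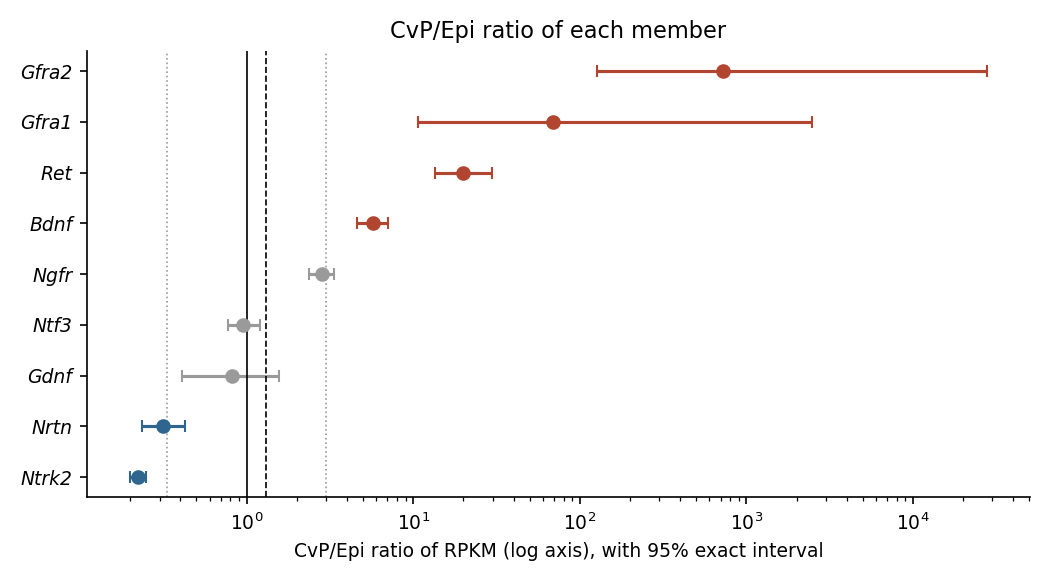
CvP/Epi ratio of each gene on a log axis, with the 95% exact counting interval as a line and the median ratio of 1.31 over all rows with at least 1 RPKM in both libraries as a dashed line. Dotted lines mark a 3-fold difference in each direction, and red, blue and grey mark genes above it in the CvP, above it in the Epi and between. The intervals of *Ntf3* and *Gdnf* hold 1, those of *Nrtn* and *Ntrk2* lie below it, and those of the other 5 genes lie above it.

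The libraries differed in general. Over 10363 rows with an RPKM of at least 1 in both, the median CvP/Epi ratio was 1.31, or 0.39 on the log2 scale. Relative to that median the ratio was 4.35 for *Bdnf*, 2.15 for *Ngfr*, 15.2 for *Ret*, 52.6 for *Gfra1* and 554 for *Gfra2*. *Ntrk2* was 5.90-fold and *Nrtn* 4.14-fold lower in the CvP than the median gene, and *Ntf3* and *Gdnf* had 0.729 and 0.623 times its ratio. The listed lengths by which the RPKM were divided are longer than the longest annotated coding transcript for *Ntf3* (2.76 times), *Nrtn* (1.35 times), *Bdnf* (1.29 times) and *Ntrk2* (1.16 times), so levels between genes are approximate, whereas the length cancels in a ratio between libraries.

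Of the 9 genes, 4 had a CvP/Epi ratio above 3, the limit of the study: *Bdnf*, *Gfra1*, *Gfra2* and *Ret*. Among the 15844 rows with a symbol and more than 3 estimated reads in at least 1 library, 21.5% had such a ratio, and among the 10149 of these with an RPKM below 10 in both libraries, as all 9 genes have, 29.3% did. In the opposite direction, 2 genes (*Nrtn* and *Ntrk2*) were more than 3-fold higher in the Epi, beside 2.58% of all such rows and 2.94% of those below 10 RPKM. The other 3 (*Ntf3*, *Gdnf* and *Ngfr*) passed neither limit, and the interval of *Ngfr* reaches past 3. No member met both criteria of the study, since these also ask for a CvP RPKM above 10. The median log2 ratio of the 9 genes was 1.45 with 0.1 RPKM added to each value, which understates the change of low genes, against 0.56 over all rows tested and 0.75 over those below 10 RPKM.

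**Figure D3:**
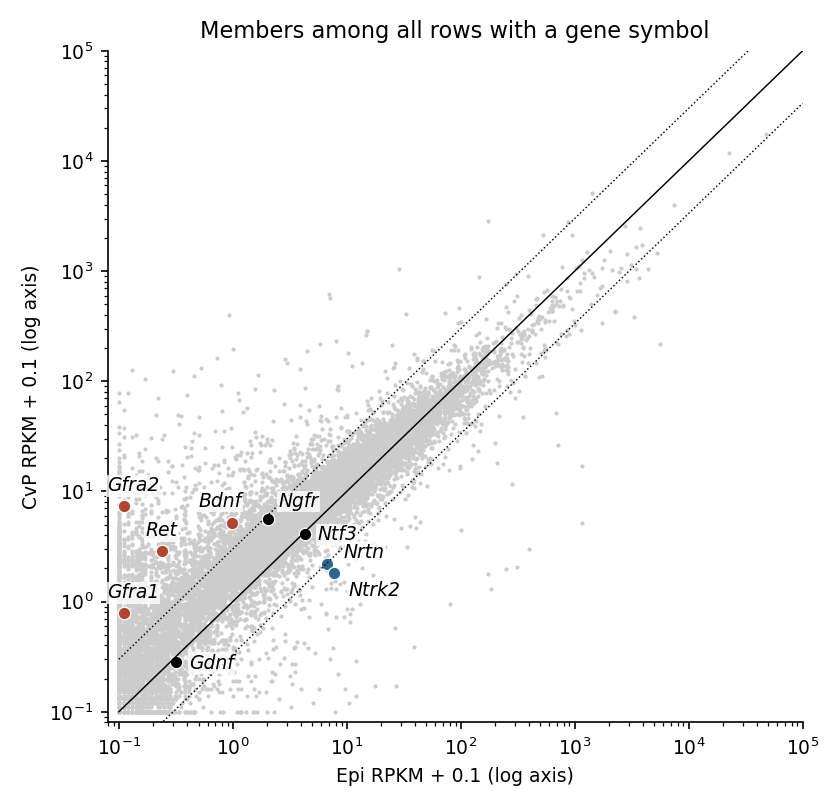
CvP RPKM against Epi RPKM for all rows with a symbol (grey), each with 0.1 added and on log axes, with the 9 genes in colour (red above and blue below the 3-fold limits, black between them). The solid line marks equal values and the dotted lines a ratio of 3 in each direction, and all 9 genes sit below 10 RPKM in both libraries.

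In the CvP the levels on the RPKM scale ran in the order *Gfra2*, *Ngfr*, *Bdnf*, *Ntf3*, *Ret*, *Nrtn*, *Ntrk2*, *Gfra1* and *Gdnf*. The order in either library rests on the listed lengths and could change with other lengths, above all for *Ntf3*, listed at 2.76 times its longest coding transcript. Neighbours that did not differ beyond counting error were *Ngfr* and *Bdnf* (1.09-fold, 0.966 to 1.22) and *Nrtn* and *Ntrk2* (1.24-fold, 0.929 to 1.62). In the Epi the order was *Ntrk2*, *Nrtn*, *Ntf3*, *Ngfr*, *Bdnf*, *Gdnf* and *Ret*, with *Gfra1* and *Gfra2* last at 1 read each. There *Ntrk2* and *Nrtn* (1.15-fold, 0.993 to 1.35), *Gdnf* and *Ret* (1.57-fold, 0.869 to 2.86) and the 2 co-receptors were not told apart by counting error. Placed among all rows of the table, *Gfra2* lay above 62.4% in the CvP and above 11.8% in the Epi, whereas *Ntrk2* lay above 38.3% in the CvP and 71.8% in the Epi.

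*Nrtn* and *Ntrk2* were the members more than 3-fold higher in the Epi, and the 250 bases before their RefSeq start sites are shown so that these promoters can be compared. The sequences come from a RefSeq table of build GRCm38.p6, in which 7 of the 9 genes have an entry (not *Gfra2* and *Ret*), and each matches NCBI37/mm9 exactly and once. Capitals mark matches to the E-box CANNTG, the GC box GGGCGG and the TATA box TATAAA, searched on both strands.
Nrtn (chr17:56896972-56897221, minus strand): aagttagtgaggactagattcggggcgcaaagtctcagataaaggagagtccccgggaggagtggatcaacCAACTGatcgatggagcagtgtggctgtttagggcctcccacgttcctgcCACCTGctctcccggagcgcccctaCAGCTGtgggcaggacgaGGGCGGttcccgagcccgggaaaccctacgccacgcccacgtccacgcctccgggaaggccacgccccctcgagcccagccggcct
Ntrk2 (chr13:58907680-58907929, plus strand): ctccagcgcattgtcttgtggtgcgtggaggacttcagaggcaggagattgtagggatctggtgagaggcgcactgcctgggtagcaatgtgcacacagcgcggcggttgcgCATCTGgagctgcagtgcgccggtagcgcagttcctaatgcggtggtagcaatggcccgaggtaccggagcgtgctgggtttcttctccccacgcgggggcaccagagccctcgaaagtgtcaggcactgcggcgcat
Both windows lie outside annotated genes on NCBI37/mm9. The *Nrtn* window held 3 E-boxes and 1 GC box, and the *Ntrk2* window held 1 E-box and no GC box. Neither held the TATA letters. Both were rich in G and C, at 64.8% and 62.8%, and each had 19 CpG. Of 32851 promoters of this length, 66.2% held an E-box, 32.7% a GC box and 12.4% a TATA box, so these matches describe the letters alone.

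Besides the members, 82 further genes of neurotrophic pathways were listed, of which 78 have a row and 71 had more than 3 estimated reads in at least 1 library. Of the 71, 27 were more than 3-fold higher in the CvP, beside the 21.5% of all rows tested. In the Epi 0 were more than 3-fold higher, beside 2.58% of all rows tested, and 44 passed neither limit. The median log2 ratio was 0.77 for 39 genes of the neurotrophin pathway, 2.12 for 19 of the GDNF pathway and 1.35 for 15 of the neurotrophic cytokines. *Gfra3*, *Gfral*, *Dok5* and *Dok6* were not analysed here.

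Among the other ligands, *Ptn*, which encodes the heparin-binding growth factor pleiotrophin, was the highest, with 41.18 RPKM in the CvP against 4.38 in the Epi, a ratio of 9.40 (8.36 to 10.6). *Artn*, which encodes artemin, the ligand preferred by GFRα3, had 8.6 RPKM in the CvP against 0.29 in the Epi, a ratio of 29.7 (18.2 to 49.3). It was the GDNF-family ligand with the highest CvP level. *Ntf5* (1.18 and 0.53 RPKM), a further ligand of TrkB, had a ratio of 2.23 (1.43 to 3.59). *Pspn* encodes persephin and had 0.67 and 0.84 RPKM, with an interval of the ratio that holds 1 (0.295 to 2.14). Of the cytokines, *Lif* (0.75 and 0.13 RPKM) had a ratio of 5.77 (3.24 to 10.5), and *Mdk* (0.65 and 0.06 RPKM), which encodes midkine, had one of 10.8 (2.25 to 82.7) that rests on 2 Epi reads. *Cntf* (0.52 and 0.09 RPKM) rested on about 16 CvP reads against 3 Epi reads and also passed the 3-fold limit. *Osm* had 11 reads in the CvP and none in the Epi, at least 3.55-fold higher against a floor of 3 Epi reads. Such a floor leaves out the counting error of the CvP reads, and the lower limit of the exact interval, 2.47, is below the 3-fold limit. *Ctf1* (4.92 and 1.87 RPKM), *Clcf1* (1.6 and 0.92 RPKM) and *Vegfa* (3.85 and 4.63 RPKM) passed neither limit, and *Gdf15* had 3 reads in all.

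Of 8 other tested receptors, 2 (*Gfra4* and *Ptprz1*) were more than 3-fold higher in the CvP, beside 21.5% of all rows tested. The alternative receptors *Ncam1* and *Sdc3* are not in this count. *Ntrk3* had 1.01 RPKM in the CvP against 0.84 in the Epi, a ratio of 1.20 with an interval of 0.889 to 1.66. *Gfra4*, the co-receptor for persephin, had 39 reads in the CvP and none in the Epi, at least 12.7-fold higher against the floor (lower limit of the exact interval 9.91). *Ncam1*, a cell adhesion molecule that can serve GDNF as an alternative receptor, had 261 reads in the CvP and none in the Epi. It was at least 85.5-fold higher against the floor (lower limit 69.1). *Sdc3*, a heparan sulphate proteoglycan that also binds GDNF, had 39.01 and 14.65 RPKM, a ratio of 2.66 (2.53 to 2.80). *Ptprz1*, a phosphatase that binds pleiotrophin, was 3.22-fold higher in the CvP (2.85 to 3.65), and *Alk* had 1 read. The cytokine receptors *Il6st* (11.72 and 8.37 RPKM), *Lifr* (2.23 and 0.95 RPKM), *Osmr* (1.47 and 0.63 RPKM) and *Cntfr* (0.13 and 0.24 RPKM) passed neither limit. Their ratios were 1.40 (1.30 to 1.51) for *Il6st*, 2.35 (2.03 to 2.73) for *Lifr* and 2.33 (1.81 to 3.05) for *Osmr*. For *Cntfr* the ratio was 0.542 with an interval of 0.179 to 1.43 that holds 1.

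**Figure D4:**
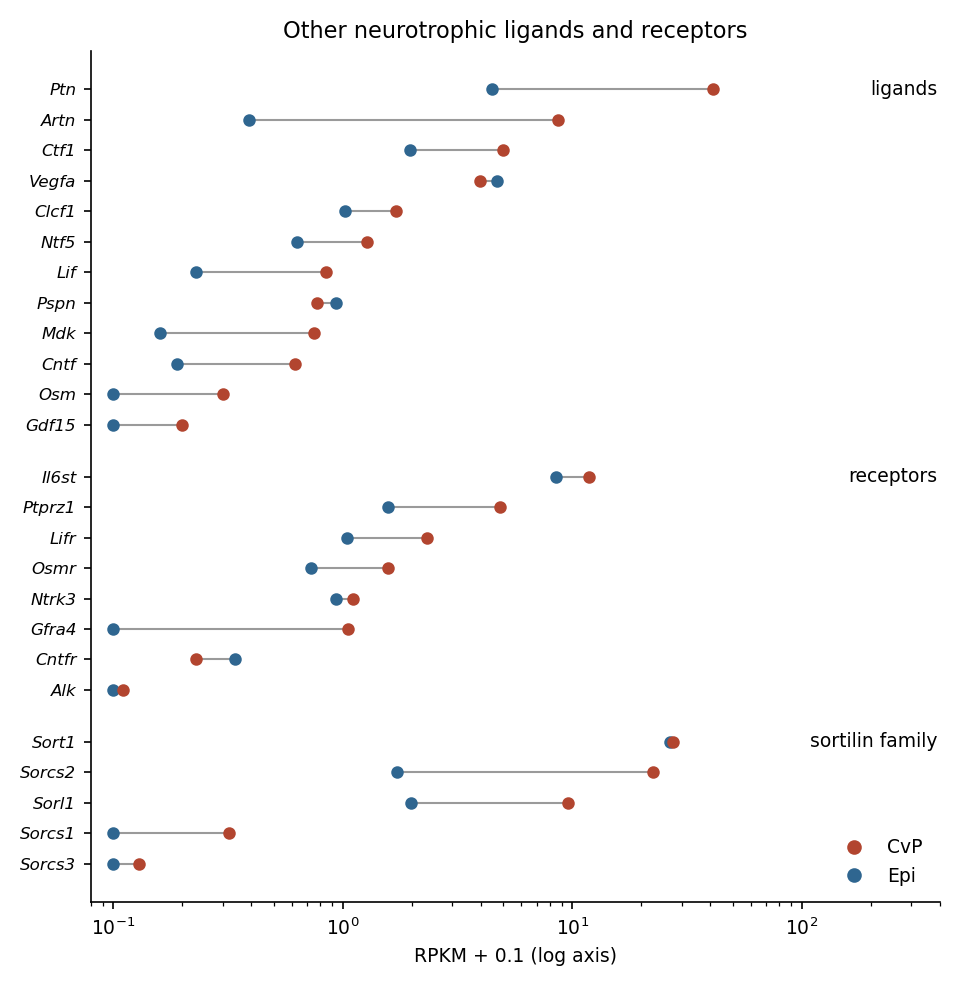
RPKM plus 0.1, on a log axis, of the other neurotrophic ligands, receptors and sortilin-family genes named in the text, except *Ncam1* and *Sdc3*. Values are for the CvP (red) and the Epi (blue), with a grey line joining the values of a gene. *Ptn*, *Artn* and *Sorcs2* show wide gaps in favour of the CvP, whereas the points of *Sort1* and *Ntrk3* lie close together.

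Sortilin and its relatives sort neurotrophins and form complexes with the receptor encoded by *Ngfr*. *Sort1* was near equal, at 27.45 RPKM in the CvP against 26.55 in the Epi (ratio 1.03, 0.994 to 1.07). *Sorcs2* was 13.8-fold (12.2 to 15.7) and *Sorl1* 5.05-fold higher in the CvP (4.61 to 5.54), *Sorcs1* was at 45 reads against none and at least 14.7-fold higher against the floor (lower limit 11.5), and *Sorcs3* had 5 reads in the CvP and none in the Epi. Of 9 tested genes for the cleavage of neurotrophin precursors and its control, 5 were more than 3-fold higher in the CvP. The share among all rows tested was 21.5%. The proprotein convertases *Furin* (25.81 and 16.32 RPKM), *Pcsk7* (11.9 and 8.86 RPKM) and *Pcsk6* (11.29 and 25.99 RPKM) were not among the 5. *Plat*, which encodes tissue plasminogen activator, had 8.8 RPKM in the CvP against 0.11 in the Epi, a ratio of 80.0 (39.2 to 181), and it was named after its value was seen.

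Among all rows tested, 21.5% were more than 3-fold higher in the CvP, and this share stands beside each count in this paragraph. Of 9 tested partners of the receptor encoded by *Ngfr*, 2 were more than 3-fold higher in the CvP. *Maged1*, an adaptor that binds this receptor, was 5.95-fold higher (5.34 to 6.64), and *Arhgdia* and *Rtn4* had ratios of 1.46 and 1.47. Of 13 adaptors of Trk receptors, 2 passed the limit, and the highest in the CvP, *Kidins220*, *Ptpn11* and *Gab1*, had ratios of 1.69, 0.965 and 0.784. Of 6 tested adaptors of RET, 2 passed. Of the 3 highest of these, *Grb7* and *Dok4* had ratios of 1.01 and 1.53, and *Pdlim7* was 12.1-fold higher in the CvP (8.78 to 17.7). Among 8 regulators and targets of the GDNF pathway, 5 were higher in the CvP, with *Lrig1*, a membrane protein that restrains receptor kinases, at 8.43-fold (7.38 to 9.70), *Sorl1* counted again, and the transcription factor *Etv5* at 4.90-fold (4.21 to 5.74).

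The tissues differed in the markers of several cell types, and in bulk samples fewer cells of a type and less RNA per cell cannot be told apart. Of the taste cell markers, 4 of 5 of type I, 9 of 10 of type II and 9 of 9 of type III were more than 3-fold higher in the CvP, and their summed RPKM was 120, 414 and 127 in the CvP against 14.2, 26.4 and 1.12 in the Epi. The other type I marker, *Slc1a3*, is 1 of the 2 that define type I cells. It had 1.04 RPKM in the CvP against 3.82 in the Epi and was 3.67-fold higher in the Epi. *Pkd2l1* and *Ddc*, which define type III cells, were at 0 in the Epi. Of 11 tested nerve markers, 8 were higher in the CvP against 1 in the Epi (summed RPKM 46.0 and 40.7, of which *Tubb3* gave 4.58 and 40.37). Of the defining nerve markers, *Nefl* had 2.32 RPKM in the CvP from about 177 reads and none in the Epi. It was at least 58.1-fold higher against the floor (lower limit 46.7). The others were low in the CvP, with *P2rx3* at 0.16, *Nefm* at 0.05, *Stmn2* at 0.04 and *Prph* at 0.02 RPKM. Apart from *P2rx3* (0.04) they were at 0 in the Epi. *Snap25* and *Uchl1*, also on the nerve list, are made by type III taste cells too. Of 14 Schwann cell and glia markers, 8 were higher in the CvP against 0 in the Epi (summed RPKM 300 and 70.8, of which *Mal* gave 215.94 and 5.74), with none of the 4 defining markers measured at 0 and *Sox10* at 0.18 and 0.08 RPKM. Of 10 tested immune markers, 7 were higher in the CvP against 0 in the Epi (summed RPKM 92.8 and 28.6), with *Cd3e* at 0 in the Epi. The part of these cell types in the levels of *Gfra1*, *Gfra2*, *Ret*, *Bdnf* and *Ngfr* was not tested.

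Some other lists were higher in the Epi, as *Nrtn* and *Ntrk2* were. The shares over all rows tested, 2.58% in the Epi and 21.5% in the CvP, stand beside each count here too. Of 9 salivary gland markers, 5 were more than 3-fold higher in the Epi and 2 in the CvP (summed RPKM 438 and 12.3). Of the defining markers, *Lipf* had 313.42 RPKM in the Epi and 1.96 in the CvP, and *Amy1* had 80.48 and 0.85. The defining *Bhlha15* had 0.14 and 0.17 RPKM, a CvP/Epi ratio of 1.21 with an interval of 0.554 to 2.62 that holds 1. Of 9 tested skeletal muscle markers, 8 were higher in the Epi and 0 in the CvP (64.4 and 7.26). Markers of fibroblasts and of vessels were divided. Of 10 fibroblast markers 4 were higher in the Epi and 3 in the CvP, and most of their summed RPKM of 134 and 50.7 came from *Dcn* (127.62 and 26.07). *Lum* was at 0 in the CvP and had 11 Epi reads, whereas *Pdgfra* (0.07 RPKM in the Epi, 1.3 in the CvP) and *Fbln1* (2.79 and 18.54) were 18.6-fold and 6.65-fold higher in the CvP. Of 10 vessel markers, 1 was higher in the Epi and 2 in the CvP (summed RPKM 21.1 and 33.3). *Rgs5* was at 0 in the CvP and had 9 Epi reads, and *Vwf* (0.09 and 4.45) and *Tek* (0.07 and 2.49) were 49.4-fold and 35.6-fold higher in the CvP. Markers of basal keratinocytes, the stem cell layer of the epithelium, were high in both libraries, with a summed RPKM of 2756 in the CvP against 3419 in the Epi, and 8 of 10 passed neither limit. The part of these tissues in the levels of *Nrtn* and *Ntrk2* was not tested. *Tubb3*, *Snap25*, *Uchl1*, *Mal*, *Fbln1*, *Vwf* and *Tek*, which define no list, were named after their values were seen.

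**Figure D5:**
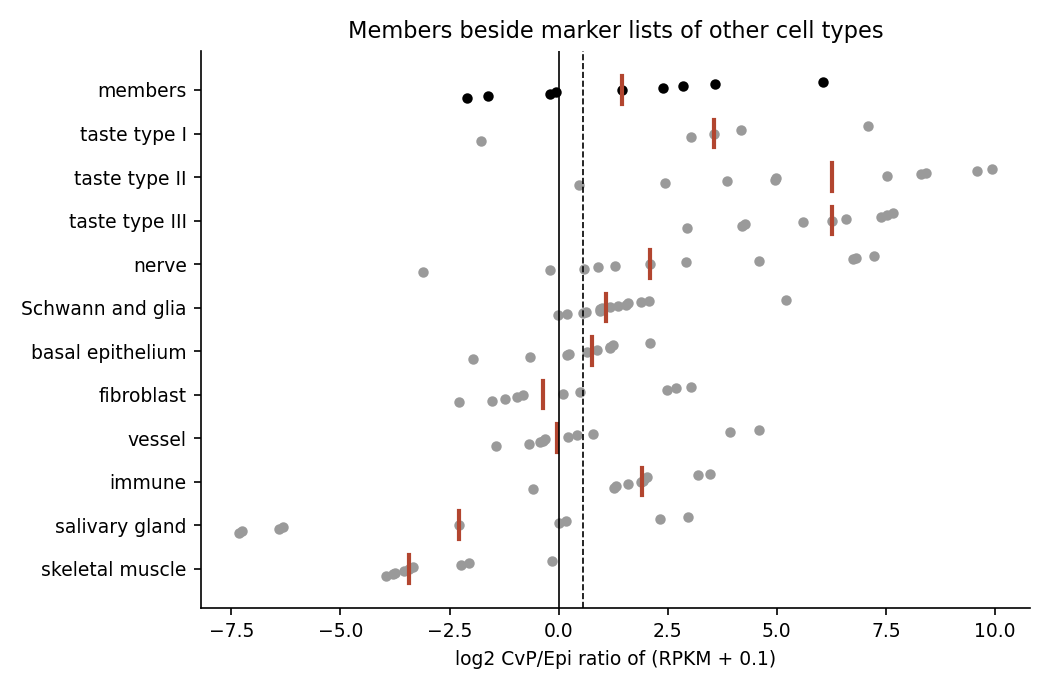
Log2 CvP/Epi ratio, with 0.1 RPKM added to each value, of the 9 genes (black) and of the tested genes of each marker list (grey), with 1 point per gene, a red bar at each median and a dashed line at 0.56, the median of all rows tested. The medians of the taste cell lists lie at 3.57, 6.26 and 6.26, that of the 9 genes at 1.45, and those of salivary gland and skeletal muscle at -2.29 and -3.42.

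The genes whose pair of RPKM values lay nearest to those of the 3 members with the highest CvP level were found by distance in log2(RPKM + 0.1) over the 2 libraries. *Gfra2* lay nearest to *Gad2*, which encodes a glutamate decarboxylase (7.23 and 0.01 RPKM, distance 0.00785), and to *Dner* (7.5 and 0 RPKM, distance 0.144), with 5 genes within 0.25. *Bdnf* lay nearest to *Tmem158* (5.04 and 0.83 RPKM) and *Scarb1* (5.34 and 0.89 RPKM), with 21 genes within that distance. *Ngfr* lay nearest to *Crat* (5.5 and 1.93 RPKM) and *Galc* (5.44 and 1.99 RPKM) and had 101 genes within it. With only 2 libraries this likeness is a description of the levels.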

How the data were processed

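Poly(A) RNA of each tissue was made into a TruSeq library and sequenced once in single-end reads of 75 bp. Per the labels and the study's methods, the authors mapped reads with Bowtie 0.12.7 to NCBI37/mm9 and used ERANGE to calculate the deposited RPKM values from the exons of each gene. The settings of ERANGE, and what it did with multiply mapping reads, are not given in the sources used here. The table has 18498 rows, of which 455 name no gene. A ratio column and other values made by the authors were not used.

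Depth was read from the RPKM step (0.352 and 0.358) between the lowest values of 163 rows with a length of 0.1 kb, and 95.2% of 331 and 94.5% of 308 low values in short rows then gave whole reads to within rounding plus 0.02 reads. To estimate a gene's reads, its RPKM was multiplied by depth and by the listed length, or by that of its longest GENCODE M1 coding transcript where that is shorter. The shorter length gives fewer reads than the listed length would, and so wider intervals. From the listed length the interval of the ratio was 4.75 to 6.90 for *Bdnf* and 0.837 to 1.09 for *Ntf3*. That of the Epi/CvP ratio was 2.44 to 4.07 for *Nrtn* and 4.07 to 4.98 for *Ntrk2*. Ratios were given 95% exact (Clopper-Pearson) intervals, and levels exact Poisson intervals. Against a gene at 0 a floor of 3 reads over the library was used. No test was made, as each tissue has 1 library. A row was tested, meaning compared, when it had a symbol and more than 3 estimated reads in at least 1 library.

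The members and lists were chosen with earlier results of these data known. Named were all 9 members, the ligands and receptors of 3 pathway lists, the 3 genes with the highest CvP RPKM of each other role, the defining markers beside a result, and the 2 genes nearest to each of the 3 members highest in the CvP. Some genes that this rule names are counted in the lists but not reported here. The statistics were tested on simulated data. Python 3.11.15, numpy 2.4.6, pandas 2.3.3, scipy 1.17.1 and matplotlib 3.10.9 were used. Alternatives were other pseudocounts, limits and scalings.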

Additional observations from a re-analysis of the deposited data

How the results depend on the processing

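No paired analysis was possible because there is a single library for each of the tissues, and so no replicate could be left out either. Of the alternatives tried, none reversed a ratio that differed from 1 beyond its interval, while those of *Ntf3* and *Gdnf*, whose intervals hold 1, are given in the report. With a pseudocount of 1 RPKM the ratio was 3.21 for *Bdnf*, 1.67 for *Gfra1*, 8.19 for *Gfra2*, 3.32 for *Ret*, 0.312 for *Ntrk2* and 2.20 for *Ngfr*, the median log2 ratio of the 9 genes was 0.74 and 1 gene was more than 3-fold higher in the Epi, because a pseudocount pulls low levels together. With 0.1 RPKM it was 7.18 for *Gfra1*, 67.0 for *Gfra2* and 12.0 for *Ret*. Divided by the median ratio of 1.31, or by the trimmed mean of 1.32, it was 4.35 or 4.34 for *Bdnf*, 0.729 or 0.726 for *Ntf3*, 0.169 by either for *Ntrk2*, and 2.15 or 2.14 for *Ngfr*. Divided by the median ratio of rows of like level, within a factor of 2, it was 3.22 for *Bdnf*, 0.616 for *Ntf3*, 0.263 for *Gdnf*, 0.200 for *Nrtn*, 8.84 for *Ret*, 0.140 for *Ntrk2* and 1.73 for *Ngfr*. With the libraries rescaled to the same RPKM sum, a factor of 1.21, it was 0.268 for *Ntrk2* and 3.40 for *Ngfr*, and 1 gene rather than 2 was past 3-fold in the Epi. At a minimum of 5-fold 0 genes were. The count of 4 genes higher in the CvP was 3 with a pseudocount of 1 RPKM or a minimum of 1 RPKM in either library, 5 with the rescaling to the same sum or a 2-fold limit, and 4 at 5-fold. With a minimum CvP RPKM of 1 or 3 in place of 10, 3 or 2 genes met both criteria. The pair ratios were recomputed with both pseudocounts after the data were seen, and none turned direction. Depth limits *Gdnf*, and the 1 Epi read of *Gfra1* and of *Gfra2* limits their ratios to the lower bounds of their intervals.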
